A study of Danio rerio with 4 samples.

Results

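Bone morphogenetic proteins (Bmp) are secreted ligands of the TGF-β superfamily. They bind paired receptor kinases, which phosphorylate Smad proteins that enter the nucleus and switch on target genes, and secreted antagonists hold the ligands back outside the cell. In the developing head this pathway patterns cranial mesenchyme and acts in the meninges, the connective tissue layers around the brain. The genes described here are the Bmp target genes *msx1b*, *msx2b* and *bambib*, the signal transducer *smad9*, and the secreted antagonists or modulators *grem2b*, *fstl1a* and *fstl1b*. They were chosen by gene symbol and are 7 of the 756 genes in the deposited table.

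The data are bulk Smart-seq2 libraries of cells sorted by FACS from dissociated heads of zebrafish larvae at 48 hpf. All larvae were wildtype and carried 2 reporters, *TgBAC(apln:Venus-PEST)*, a short-lived Venus under the control of *apln*, and *Tg(kdrl:Hsa.HRAS-mCherry)*, which labels endothelial cells. The comparison is between Venus positive, mCherry negative cells (2 libraries) and cells negative for both reporters (2 libraries), so endothelial cells carrying mCherry were left out of both groups. The labels call the cells of both groups mixed. Whether the paired libraries of each group were independent sorts is not stated in the sources used here, so the p-values reflect library-to-library spread, which may be technical.

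The table holds only genes that had passed the authors' own DESeq2 comparison of these libraries (Q value under 0.05 over 23016 genes), so a difference between the groups was a condition for being listed. The listed genes summed to 876579 to 1175560 reads per library, which is not the full depth. Of 10 fibroblast and mesenchyme markers 7 are in the table and all were higher in Venus positive cells, with summed normalized read counts of 7081 and 9741 in double negative replicates 1 and 2 and 45059 and 33651 in Venus positive libraries 3 and 4. The listed markers of blood, epithelium and pigment cells that are in the table were lower. The 9 erythrocyte markers fell from 118253 and 198023 to 3081 and 1838, the 6 epidermal and other epithelial markers in the table (of 12) from 354266 and 270563 to 25133 and 51007, and the 3 neural crest and pigment cell markers (of 8) from 4083 and 3779 to 941 and 1412. No marker was at 0 in either Venus positive library. Epithelial genes outside the marker list went both ways. *krt18* and *pkp3b*, picked after their values were seen, rose by 1.52 and 1.73 on the log2 scale, and *krt15* and *krt17* fell (-2.99 and -5.53). None of the 8 endothelial, 9 neural, 8 muscle, 8 cartilage and bone or 6 macrophage and neutrophil markers is in the table, but other genes of muscle and cartilage are, and they were higher in Venus positive cells like the Bmp genes. Of genes named here after their values were seen, the striated muscle genes *ttn.1*, *ttn.2*, *tnni2a.2* and *vmhc* rose by 2.82 to 4.69 on the log2 scale. The muscle genes *cacng1a* and *chrng* had at most 1.02 normalized read counts in double negative cells and 36.4 to 62.8 in Venus positive cells. The cartilage genes *ucmaa* and *col2a1b* rose by 3.87 and 1.49, and *col2a1b* stood at -0.33 when the libraries were scaled on the listed genes alone. The neural genes *foxn4* and *insm1a*, named in the same way, were lower in Venus positive cells (-1.44 and -1.46). Neither passed over all 23016 genes (adjusted p = 0.164 and 0.198 in edgeR). *shha*, *ntn1b* and *foxa1*, active in the floor plate among other tissues, were higher (2.50, 1.98 and 1.89, adjusted p = 0.0132, 0.0437 and 0.243 in edgeR over all 23016 genes). These picked genes do not give a direction for neural genes as a group. Other neural genes outside the marker list were not surveyed. In bulk libraries, fewer cells of a type and less RNA per cell cannot be told apart, and the part of these other cell types in the values below was not tested.

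All 7 genes were higher in the Venus positive cells, by 2.77-fold (*fstl1b*) to 9.90-fold (*msx2b*) in normalized read counts, and for each gene both Venus positive libraries lay above both double negative libraries. Each passed the quasi-likelihood test of edgeR (adjusted p under 0.05, Benjamini-Hochberg, over the 754 listed genes tested), as did every gene tested. The adjusted p-values over the listed genes, given below, are thus no independent evidence of a difference. Because the table was selected for such differences, 64.2% of the genes tested were called higher in this way (and 35.8% lower), and 64.2% of the listed genes had libraries that did not overlap in this direction, so these counts are no result about the Bmp genes. The median log2 fold change of the 7 genes was 2.28, against 1.85 over all genes tested and 2.39 over those that were higher. With the adjustment taken over all 23016 genes that the authors tested, 4 of the 7 passed (*msx1b*, *msx2b*, *smad9* and *fstl1a*). There 29.7% of the genes tested were called higher (and 25.7% lower), which is 224 of the 484 genes that were higher. The genes that lose the call there had all passed the authors' own test over the same genes.

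**Figure D1:**
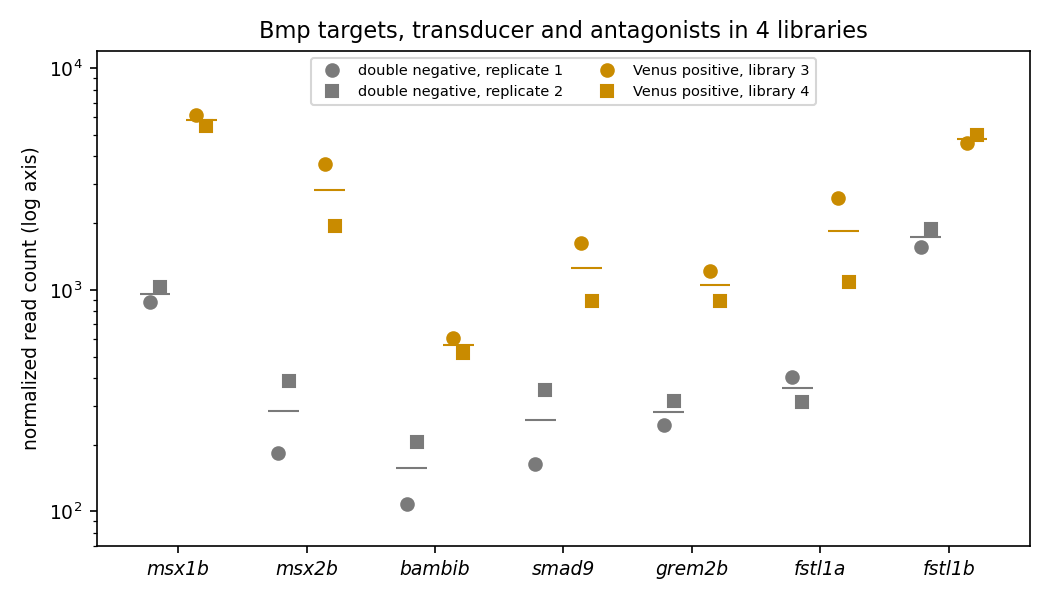
Normalized read counts (log axis) of the 7 genes in each of the 4 libraries. Points are libraries and short lines are group means of 2 libraries. Every Venus positive library lies above both double negative libraries, and the library pairs of *msx2b*, *smad9* and *fstl1a* lie further apart than those of *msx1b* and *fstl1b*.

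The Msx genes encode homeobox transcription factors that Bmp signaling induces in many embryonic tissues, cranial mesenchyme among them. Double negative replicates 1 and 2 had 884 and 1029.6 normalized read counts of *msx1b* (NCBI gene 30511), and Venus positive libraries 3 and 4, as the table numbers them, had 6153 and 5479.8. The lower Venus positive library stood 5.32 times above the higher double negative library, among genes that were selected for a difference between the groups. The means were 957 ± 103 and 5816 ± 476 (SD, n = 2), and the log2 fold change was 2.60 (standard error 0.45, adjusted p = 1.7e-04 in edgeR, and 0.00509 over all 23016 genes). For *msx2b* (30531) the normalized read counts were 183 and 387 in double negative cells and 3707 and 1941 in Venus positive cells. Its libraries differed by a factor of 2.11 within the double negative group and by a factor of 1.91 within the Venus positive group, yet the groups stood 5.01-fold apart at their nearest libraries. The log2 fold change was 3.31 (standard error 0.54, adjusted p = 1.0e-04 in edgeR, and 0.00319 over all 23016 genes), which ranked 90 among the 754 genes tested, and *msx1b* ranked 198. The others ranked lower: *fstl1a* 246, *smad9* 259, *grem2b* 360, *bambib* 379 and *fstl1b* 473, where 484 of the genes tested were higher. With 1 library left out, the log2 fold change of *msx2b* ran from 2.77 (without Venus positive library 3) to 3.94 (without double negative replicate 2). The medians over all genes tested were then 1.54 and 2.21, against 1.85 with all libraries.

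*bambib* (431736) encodes a transmembrane pseudoreceptor that lacks the kinase domain of Bmp and TGF-β receptors and dampens their signal, and in vertebrate embryos it is itself a Bmp target. Its normalized read counts were 108 and 206 in double negative cells and 608 and 521 in Venus positive cells. The Venus positive libraries differed little, whereas double negative replicate 2 was 1.91 times as high as replicate 1. *bambib* had the lowest mean in Venus positive cells of the 7 genes, 565 ± 61.5 (SD, n = 2), and changed by 1.85 on the log2 scale (standard error 0.59, 95% interval 0.62 to 3.09). The adjusted p was 0.00625 in edgeR over the listed genes, 0.191 over all 23016 genes, and 0.0774 over the genes tested without double negative replicate 1, where the log2 fold change was 1.46.

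*smad9* (445564) encodes a receptor-activated Smad of the Bmp branch, a relative of Smad1 and Smad5 that carries the signal from the receptor to the nucleus. The double negative libraries had 164 and 354 normalized read counts and the Venus positive libraries 1623 and 888. Both groups were spread by about the same factor, 2.15 and 1.83, and the nearest libraries of the groups differed by a factor of 2.51. The log2 fold change was 2.28 (standard error 0.54, adjusted p = 0.00129 in edgeR, and 0.0395 over all 23016 genes). It was 2.93 without double negative replicate 2, where the median over all genes tested was 2.21. Without Venus positive library 3 it was 1.78, where that median was 1.54. *smad9* was the only one of the 7 genes whose deposited read counts were not whole numbers, in all 4 libraries, which holds for 78 of the 756 genes in at least 1 library. RSEM gives such values where it divides reads between transcripts of more than 1 gene, so the level of *smad9* carries that uncertainty. Of the 14 Smad genes listed, *smad9* was the only one in the table.

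The antagonists act outside the cell. *grem2b* (550399) encodes a Gremlin of the DAN family, which binds Bmp ligands and keeps them from their receptors. Double negative cells had 246 and 316 normalized read counts and Venus positive cells 1219 and 890.2, so that the groups did not overlap and stood 2.82-fold apart at their nearest libraries. The log2 fold change was 1.91 (standard error 0.50, adjusted p = 0.00216 in edgeR, but 0.0661 over all 23016 genes).

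*fstl1a* (325423) and *fstl1b* (324309) are the zebrafish copies of follistatin-like 1, a secreted glycoprotein that in mouse lung restrains Bmp4 signaling. Normalized read counts of *fstl1a* were 406 and 312 in double negative cells and 2602 and 1085 in Venus positive cells. Venus positive library 3 stood further above library 4 than for any other of the 7 genes, and *fstl1a* was the only one of the 7 that was higher in double negative replicate 1 than in replicate 2. Its log2 fold change was 2.36 (standard error 0.52, adjusted p = 8.0e-04 in edgeR, and 0.0243 over all 23016 genes), and 1.60 without Venus positive library 3. Leaving out that library lowered the median over all genes tested from 1.85 to 1.54 as well. Those of *fstl1b* were 1558 and 1891 in double negative cells and 4597 and 4973 in Venus positive cells, close pairs in both groups. It had the smallest change of the 7 genes, from a mean of 1725 ± 236 to 4785 ± 266 (SD, n = 2) or 1.47 on the log2 scale (standard error 0.44), and the smallest gap between the groups, 2.43-fold. The adjusted p was 0.00456 in edgeR over the listed genes, 0.139 over all 23016 genes, and 0.0694 without double negative replicate 1.

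Read counts depend on gene length, so the levels of different genes were compared in TPM, the authors' share of transcripts, which is corrected for length. In Venus positive cells the authors' mean TPM was 556 for *msx1b* and 236 for *msx2b*. *fstl1b*, *grem2b* and *fstl1a* followed at nearly one mean level, 167, 165 and 156 TPM, and *smad9* and *bambib* at 65.5 and 52.3 TPM. The single Venus positive libraries, compared per length below, put *fstl1b*, *grem2b* and *fstl1a* in opposite orders, so their near equality holds only for the means. For scale, the median of the authors' mean TPM over the genes that were higher in Venus positive cells was 37.3. In double negative cells the order was different below *msx1b* (81.7 TPM), with *fstl1b* at 50.0, *grem2b* at 40.4, *fstl1a* at 29.2 and *msx2b* at 21.2 TPM, ahead of *bambib* at 12.6 and *smad9* at 11.8 TPM. The double negative libraries overlapped between *fstl1a* (37.0 and 21.5 TPM) and *msx2b* (16.3 and 26.1 TPM), and between *bambib* (10.3 and 14.8 TPM) and *smad9* (8.96 and 14.7 TPM), so the order within these pairs did not exceed the spread.

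**Figure D2:**
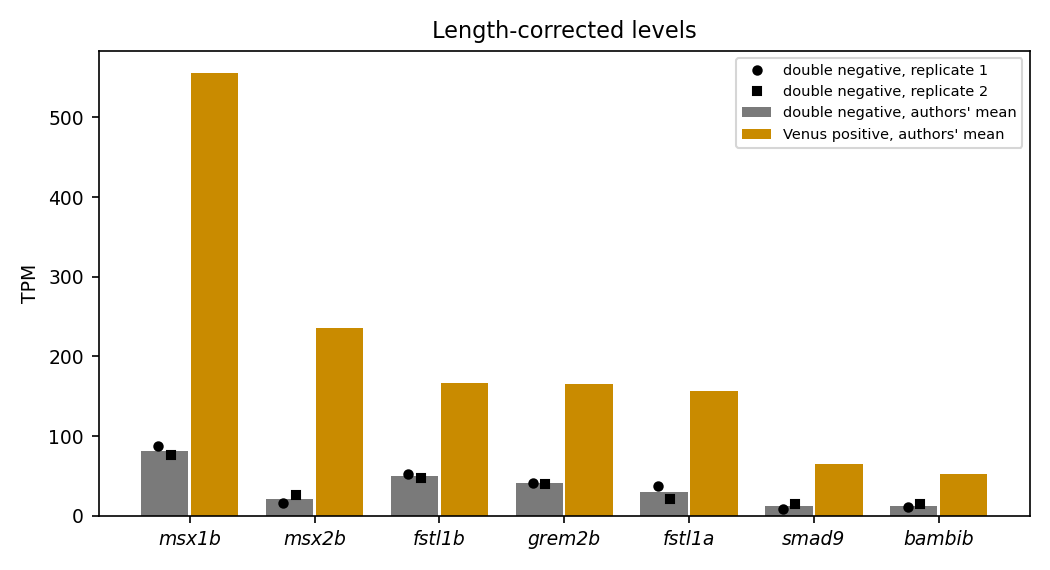
Length-corrected levels (TPM) of the 7 genes. Bars are the authors' means of 2 libraries for double negative and Venus positive cells, and the black points are the double negative replicates. By these means *msx1b* is highest in both groups. *msx2b* is second in Venus positive cells (236 TPM) but below *fstl1b*, *grem2b* and *fstl1a* in double negative cells (21.2 TPM). In double negative replicate 2 *msx2b* (26.1 TPM) lies above *fstl1a* (21.5 TPM). Single Venus positive libraries are not shown, and the order of *fstl1b*, *grem2b* and *fstl1a* differed between them.

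To set the levels of single Venus positive libraries beside each other per length, each gene was expressed as a percentage of *msx1b* in the same library, with relative gene lengths taken from the FPKM, a read density per length and depth, of the double negative libraries. *msx2b* stood at 18.7% and 34.0% of *msx1b* in double negative cells and at 54.5% and 32.0% in Venus positive libraries 3 and 4. Only library 3 exceeded the double negative range. *fstl1b* stood at 59.9% and 62.5% of *msx1b* in double negative cells and at 25.4% and 30.9% in Venus positive cells. *grem2b* stood at 47.2% and 52.0% against 33.6% and 27.5%, and *bambib* at 11.8% and 19.4% against 9.60% and 9.24%. *smad9* stood at 10.3% and 19.2% against 14.7% and 9.03%, and *fstl1a* at 42.6% and 28.1% against 39.2% and 18.4%. The groups overlapped for *smad9* and *fstl1a*, but not for *fstl1b*, *grem2b* and *bambib*. Each of these genes had a smaller fold change than *msx1b*, which by itself lowers such a percentage. The share of listed genes without overlap in this measure was not computed. Exact permutation tests of 2 against 2 libraries cannot go below p = 0.333, and none was run on these percentages. In Venus positive library 3 the length-corrected order was *msx2b*, *fstl1a* (39.2% of *msx1b*), *grem2b* and *fstl1b*, and in library 4 it was *msx2b*, *fstl1b*, *grem2b* and *fstl1a* (18.4%), so the place of *fstl1a* differed between the libraries.

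The paralogue pairs were compared within each library, where the scaling between libraries drops out. The ratio of *fstl1a* to *fstl1b* normalized read counts was 0.261 and 0.165 in double negative cells and 0.566 and 0.218 in Venus positive cells. Venus positive library 4 thus lay within the double negative range, and the mean log2 ratios of -2.27 ± 0.47 and -1.51 ± 0.97 (SD, n = 2) did not separate the groups (difference 0.76, p = 0.667, two-sided exact permutation test). The ratio of *msx2b* to *msx1b* was 0.207 and 0.376 in double negative cells and 0.602 and 0.354 in Venus positive cells, again with overlap between the groups (difference 0.73 on the log2 scale, p = 0.667, two-sided exact permutation test). The data therefore do not resolve whether the copies of either pair changed by different factors. Only these 2 pairs were compared.

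**Figure D3:**
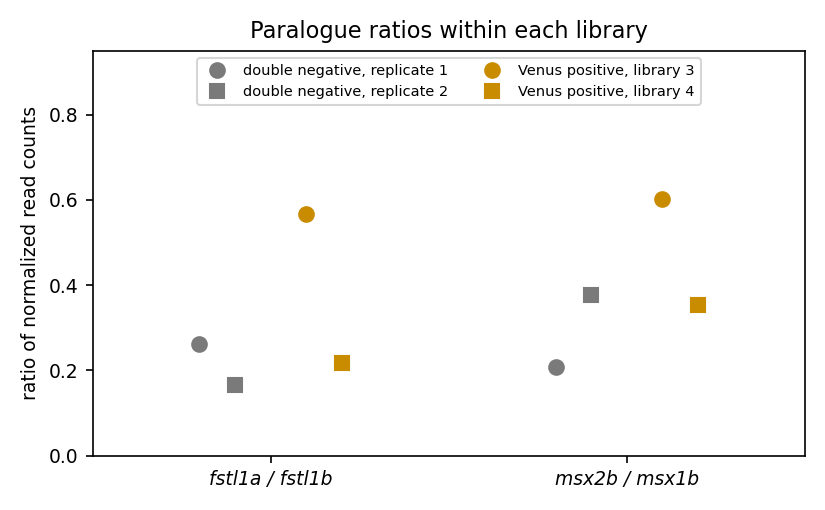
Ratio of normalized read counts of *fstl1a* to *fstl1b* and of *msx2b* to *msx1b* in each library. For both pairs Venus positive library 3 is highest (0.566 and 0.602), and library 4 lies within the range of the double negative libraries.

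Within the groups, 6 of the 7 genes were higher in Venus positive library 3 than in library 4 (all but *fstl1b*), as were 70.5% of the genes that were higher in Venus positive cells. In the double negative group 6 of the 7 (all but *fstl1a*) were higher in replicate 2, as were 67.6% of those genes. Of the 7 fibroblast and mesenchyme markers 4 were higher in Venus positive library 3 than in library 4, and the difference between their sums lay mostly in *col5a1* (22824 and 12587 normalized read counts). In double negative replicate 2, 6 of the 7 markers were higher than in replicate 1. Their part in the spread of the Bmp genes was not tested. The pattern of each gene over the 4 libraries was compared with those of the other listed genes, leaving out symbols that are automatic identifiers. The measure was the distance between log2(normalized read count + 1) profiles after taking off each gene's mean. The nearest genes were *tgm2b* (distance 0.05 log2 units) and *gulp1a* (0.20) for *msx1b*, and *xirp2a* (0.31), an actin-binding gene of striated muscle, and *twist3* (0.35) for *msx2b*. *tril* (0.09) and *atoh8* (0.10) were nearest to *bambib*, and *emilin2a* (0.09) and *col12a1b* (0.12) to *smad9*. *angptl2b* (0.10) and *prrx1b* (0.12) were nearest to *grem2b*, *lpar1* (0.38) and *olfml3a* (0.43) to *fstl1a*, and *sema3e* (0.07) and *socs3b* (0.15) to *fstl1b*. Among the 7 genes themselves the closest pair was *bambib* and *grem2b* (0.44) and the most distant *msx2b* and *fstl1b* (2.07). With 4 libraries such a distance reflects mainly the size of the group difference and the spread of 2 pairs of libraries.

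The authors' size factors and the whole-library depth gave similar sizes and the same calls. Scaling on the listed genes alone lowered the sizes, removed most calls and turned the direction of *fstl1b*. With the whole-library depth, recovered from the FPKM values, in place of the authors' size factors, all 7 genes were higher and passed edgeR's test. Their log2 fold changes ran from 1.52 (*fstl1b*) to 3.34 (*msx2b*). Of all genes tested 64.2% were called higher in this way too, so the count is no result about the Bmp genes. Scaling on the listed genes alone by the median of ratios centres a list chosen for its differences, and it moved the median log2 fold change from 1.85 to -0.02. It lowered all 7 genes by similar amounts, so the lost calls mainly restate the size of each fold change and do not test it. *msx2b* was then the only one of the 7 still called (1.43, adjusted p = 0.0148 in edgeR), and *fstl1b* turned to -0.37. Of the 754 genes tested, 484 were higher under the authors' size factors, and 72 were called higher under this scaling.

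**Figure D4:**
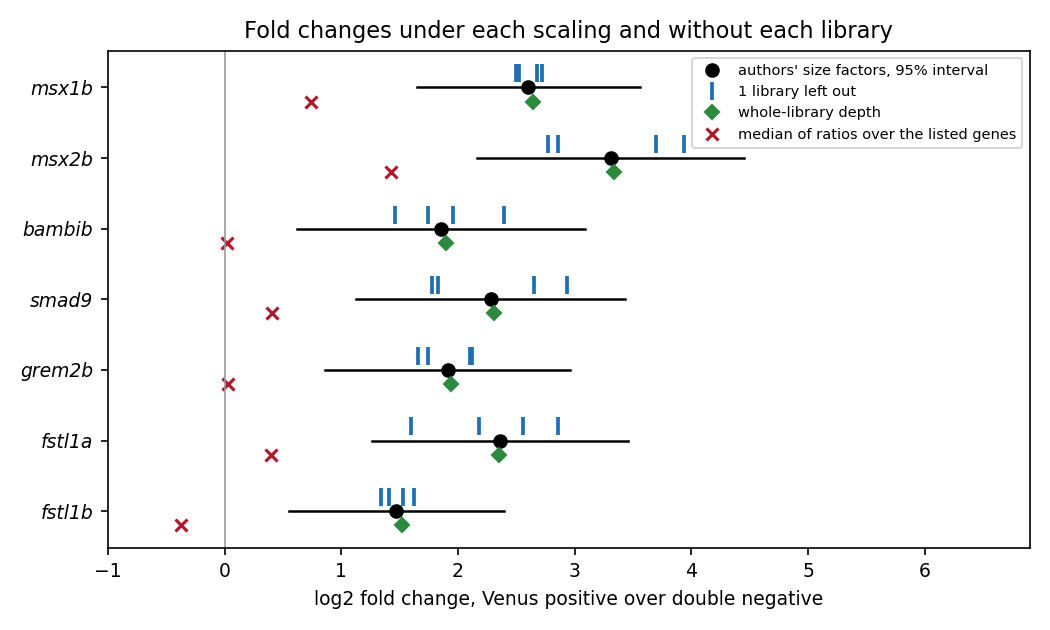
Log2 fold changes (Venus positive over double negative) of the 7 genes. Black points and lines are edgeR estimates with 95% intervals under the authors' size factors, blue ticks leave out 1 library each, green diamonds use whole-library depth and red crosses use the median of ratios over the listed genes. Depth scaling changes the estimates by little, and the listed-gene scaling moves every gene toward 0, with *fstl1b* below it.

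Of 148 genes of the Bmp pathway and its TGF-β and activin branch, 22 are in the table, with 21 higher and 1 lower in Venus positive cells and a median log2 fold change of 2.73, against 1.85 over all genes tested and 2.39 over those that were higher. Of all genes tested 64.2% were called higher and 35.8% lower. With the adjustment over all 23016 genes 13 of the higher genes passed and the lower one did not. There 29.7% of the genes tested were called higher (224 of the 484 that were higher) and 25.7% lower. The other 126 genes were not analysed here, among them all 22 receptor genes, and their absence from a list of called genes does not show equal levels. Of 20 ligand genes 4 were higher (*bmp2b*, *bmp3*, *bmp4* and *bmp7b*), with log2 fold changes of 2.66 to 3.46. The listed-gene scaling centres the list by construction, so values and calls under it restate fold size and do not test these genes. Under the listed-gene scaling *fstl1b*, *tgfb3* and *atoh8* turned negative or stood at 0 (-0.37, -0.32 and -0.00 on the log2 scale). *bambib* and *grem2b* also stood next to 0 (0.02 and 0.03), and the other pathway genes in the table kept their direction. Of the 21 higher genes 5 were still called there (*bmp3*, *bmp4*, *fstl3*, *msx2b* and *thbs1a*), beside 72 of the 754 genes tested. Of those 754 genes 484 were higher under the authors' size factors.

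Besides the genes above, 3 target genes were in the table, of 34 listed. *msx3*, a further Msx homeobox gene, had 637 and 542 normalized read counts in double negative cells and 3697 and 4532 in Venus positive cells, and rose by 2.80 on the log2 scale (standard error 0.46, adjusted p = 1.0e-04 in edgeR). All 3 Msx genes of the table were higher and passed over all 23016 genes, as did 224 of the 484 higher genes (29.7% of all tested). *atoh8*, a basic helix-loop-helix factor that responds to Bmp in mammalian cells, had 237 and 416 against 1226 and 1100.1 normalized read counts (1.83 on the log2 scale, adjusted p = 0.00285 in edgeR, 0.087 over all 23016 genes, and 0.0503 over the listed genes without double negative replicate 1). *hand2*, a basic helix-loop-helix factor of the pharyngeal arches and heart, was the only listed pathway gene that was lower. Double negative cells had 488 and 401 normalized read counts of it and Venus positive cells 6.28 and 126, so that the Venus positive libraries differed by far more than the double negative ones. Its log2 fold change was -2.73 (standard error 0.91, adjusted p = 0.00808 in edgeR, and 0.247 over all 23016 genes), -1.82 without Venus positive library 3 and -6.12 without library 4.

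Of 35 antagonists and extracellular modulators 7 were in the table, all higher, beside 64.2% of all genes tested. Over all 23016 genes 3 of the 7 passed (*fstl1a*, *fstl3* and *nbl1*), as did 224 of the 484 higher genes (29.7% of all tested). *kcp* and *bmp1a* did not pass (adjusted p = 0.0893 and 0.0788 in edgeR). Beside *grem2b*, *fstl1a* and *fstl1b* the 7 in the table were *fstl3*, *kcp*, *nbl1* and *bmp1a*, each with a larger log2 fold change than those 3. *fstl3*, a follistatin-like binder of activins and Bmps, had 102 and 128 normalized read counts in double negative cells and 1243 and 2615 in Venus positive cells. It rose by 4.07 on the log2 scale (standard error 0.55, adjusted p = 2.4e-05 in edgeR), and by 3.44 without Venus positive library 4. *nbl1*, the DAN antagonist, rose by 2.97 on the log2 scale. *kcp*, whose mouse counterpart enhances Bmp signaling, is in the table under another symbol with the same NCBI gene ID. It rose by 3.04, with 2.27 without Venus positive library 3, 4.19 without double negative replicate 1 and 2.42 without replicate 2. *bmp1a* is no Bmp ligand but a tolloid-type protease that cleaves procollagen and chordin. Its 764 and 174 normalized read counts in Venus positive cells differed by a factor of 4.38, against 35.3 and 86.9 in double negative cells. The log2 fold change of 2.94 was 1.52 without Venus positive library 3 (adjusted p = 0.0727 in edgeR), 3.65 without library 4 and 3.73 without double negative replicate 2.

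In the TGF-β and activin branch 4 of 26 genes were in the table, all higher, beside 64.2% of all genes tested. The ligand genes *tgfb1a* and *tgfb3* rose by 3.29 and 1.51 on the log2 scale. The thrombospondin genes *thbs1a* and *thbs1b*, whose mammalian product activates latent TGF-β, rose by 3.15 and 2.24. Over all 23016 genes both thrombospondin genes passed, as did 224 of the 484 higher genes (29.7% of all tested). *tgfb1a* and *tgfb3* did not pass (adjusted p = 0.0502 and 0.188 in edgeR). Without Venus positive library 4 the adjusted p of *tgfb3* over the listed genes was 0.0522 in edgeR.

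**Figure D5:**
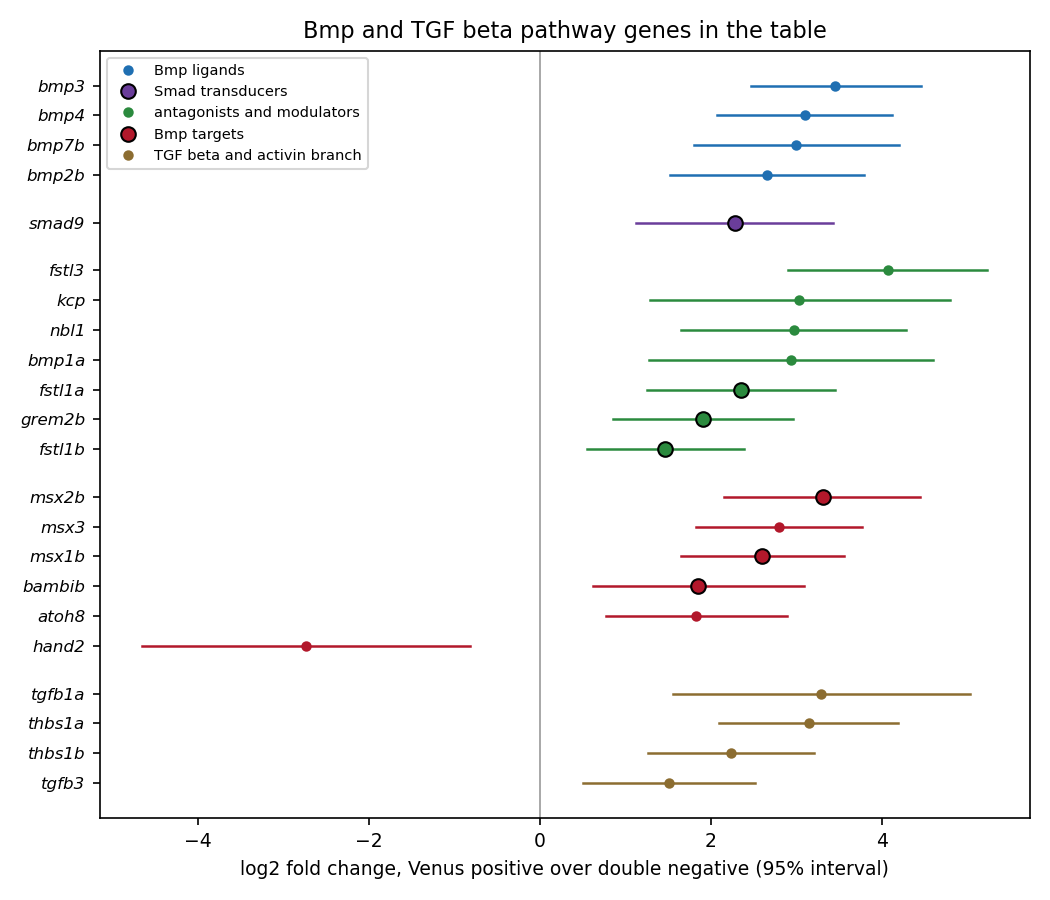
Log2 fold changes with 95% intervals (edgeR, authors' size factors) of the 22 pathway genes in the table, grouped and coloured by role. Large points with black rims are the 7 genes described here. *hand2* is the only gene below 0 (-2.73), and *fstl3* has the largest estimate (4.07).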

How the data were processed

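The authors filtered reads with SOAPnuke, mapped them to GRCz11 with HISAT2, aligned them to the gene set with Bowtie2 and estimated expression with RSEM. Versions in the submitters' processing notes are 2.0.4 for HISAT2, 2.4.4 for Bowtie2 and 1.2.28 for RSEM. The deposited table holds RSEM expected counts per library, normalized counts (a signal, the count over a size factor set by the authors), TPM and FPKM, and the authors' p-value and Q value columns, read here only to find how the table was filtered. All 756 Q values lie under 0.05 and match Benjamini-Hochberg values computed for 23016 genes. The authors' fold changes were not used, nor were 18 columns between single libraries and 6 columns of per-library values for the Venus positive libraries, which the table numbers 3 and 4 and the labels 1 and 2.

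Expected counts were raised to whole numbers and tested between the groups, two-sided, with the quasi-likelihood test of edgeR 4.0.16 in R 4.3.3, on 754 genes that reached 10 counts in 2 or more libraries (biological coefficient of variation 0.417). The spread comes from genes selected for a difference, so p-values can be too small. The authors' size factors were 1.22 and 0.98 (double negative, from the deposited normalized counts) and 0.80 and 1.15 (Venus positive, from 7 genes in the study's source data). Relative depth (1.00, 0.88, 0.71 and 0.91) came from FPKM of 296 genes. Reads carry no molecular identifiers. DESeq2 1.42.0, limma 3.58.1 and other settings were tried as alternatives, and the test was tried on simulated counts. Adjustment over 23016 genes counts unlisted genes as not called. Genes named are the 7 genes, the listed pathway genes in the table (1 is not reported here and was left out of the counts) and the 2 genes of nearest pattern, without automatic identifiers. The members and lists were chosen with earlier results of these data known. Names were matched by symbol or NCBI gene ID in a RefSeq table of GRCz12tu (737 of 756 IDs found). Sequences are not shown.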

Additional observations from a re-analysis of the deposited data

How the results depend on the processing

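Of the 12 alternatives tried for each gene, *msx2b* kept its call in 12, *msx1b*, *smad9* and *fstl1a* in 10, *grem2b* in 9, and *bambib* and *fstl1b* in 8. The same tally over all genes tested was not computed, so these counts do not set the 7 genes apart from other listed genes. The DESeq2 Wald test, limma voom, no filter on low counts, rounding to the nearest whole number and whole-library depth scaling (chosen after seeing the data) changed no call of the 7 genes. Under these settings 483 to 485 genes were called higher, against 484 in the main test. The unchanged calls are therefore no result about the Bmp genes. Scaling on the listed genes centres the list by construction. TMM over the listed genes gave log2 fold changes of 0.84 for *msx1b*, 0.13 for *bambib*, 0.53 for *smad9*, 0.14 for *grem2b*, 0.51 for *fstl1a* and -0.28 for *fstl1b*, none past the threshold, and 84 genes called higher. DESeq2's size factors over the listed genes gave 0.74, 0.02, 0.41, 0.03, 0.40 and -0.37 for the same genes and 72 genes called higher. Adjusted over all 23016 genes, the calls of *bambib* (1.85), *grem2b* (1.91) and *fstl1b* (1.47) were lost and 224 genes were called higher, against 484 over the listed genes. With 1 library left out, log2 fold changes were 2.50 to 2.72 (*msx1b*), 2.77 to 3.94 (*msx2b*), 1.46 to 2.39 (*bambib*), 1.78 to 2.93 (*smad9*), 1.66 to 2.12 (*grem2b*), 1.60 to 2.86 (*fstl1a*) and 1.34 to 1.62 (*fstl1b*), and 400 to 448 genes were called higher and 131 to 268 lower, against 270. A lone library was assumed to vary like the other group. Between single libraries the *fstl1a* to *fstl1b* difference ran from -0.26 to 1.78 on the log2 scale and the *msx1b* to *msx2b* difference from -1.54 to 0.09. No paired analysis was possible because the Venus positive columns do not carry the replicate numbers of the labels, so no source says which libraries would form a pair. With 2 libraries a group, precision is set by the spread between libraries rather than by the 131 to 6316 reads behind each value.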
